A study of Mus musculus with 38 samples.

Results

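RNA of the left ventricle was measured in 38 mice, with 1 library per mouse, and the values of 10 genes that break down the branched chain amino acids (BCAA) leucine, isoleucine and valine are described here: Bcat2, Bckdha, Bckdhb, Dbt, Bckdk, Ppm1k, Ivd, Mccc1, Hibadh and Acadsb. The members were chosen by name, with earlier results of these data known, and all 10 were found among the 29564 genes of the tables and passed the filter on low counts, which kept 13765 genes. The mice were wild-type C57BL6 (C57BL/6J in the study's methods). A group of 8 was non-failing (non_failing). The study's methods describe a group on standard chow, and its legends name the controls of this experiment as vehicle controls. The other 30 mice had heart failure with preserved ejection fraction (HFpEF) brought on by a high-fat diet with L-NAME, an inhibitor of nitric oxide synthesis. Of these, 8 received vehicle (HFpEF+Veh), 11 received TYA-018, an inhibitor of the deacetylase HDAC6 (HFpEF+TYA-018), and 11 received empagliflozin, an inhibitor of the glucose transporter SGLT2 (HFpEF+SGLT2i), each by mouth once daily. The title of the deposited data gives 3 months of treatment and the methods of the study another length, the labels call the mice female and the methods male, and the labels give no age. Diet and L-NAME were given together, so their parts in the model cannot be told apart.

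BCAA catabolism runs in mitochondria. Bcat2 moves the amino group of all 3 amino acids onto another keto acid, and the branched chain ketoacid dehydrogenase (BCKDH) complex then commits the carbon skeletons to oxidation. Bckdha and Bckdhb encode the alpha and beta subunits of its decarboxylase and Dbt its core acyltransferase. The complex is switched off when the kinase Bckdk phosphorylates the alpha subunit and switched on when the phosphatase Ppm1k removes that phosphate. Beyond the complex the routes part: Ivd and Mccc1 act on leucine, Acadsb on isoleucine and Hibadh on valine. The heart oxidises BCAA, and the pathway is widely studied in heart failure and in insulin resistance.

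Libraries held 21451631 to 59280407 expected counts, and the lowest expected count of a member in any library was 170. Mitochondrially encoded genes took 28.5% to 39.5% of the counts. Markers of cardiomyocytes were high in each group, with a summed level of 31133 to 52808 CPM, a count scaled for library size, over 8 genes, and those of white fat summed to at most 0.613 CPM. The vehicle library V2523 stood apart with 1971 CPM over 9 hepatocyte markers, while the remaining 7 vehicle libraries reached no more than 39.9 CPM, and it also held the highest or the second highest TPM of the vehicle group for 9 of the 10 members. A further vehicle library, V2532, held 104 CPM over 5 markers of fast skeletal muscle, against at most 1.73 CPM in the rest of its group and 4.08 CPM in the other groups, and it had the highest vehicle TPM of 5 members. Counts of called members are given with and without each of these libraries. Hepatocyte markers differed between groups as well: they summed to 27.9 to 372 CPM in non-failing hearts, to a median of 5.97 CPM in vehicle hearts without V2523, and to at most 4.89 CPM in HFpEF+TYA-018 and 14.5 CPM in HFpEF+SGLT2i hearts. Against non-failing hearts 8 and 7 of the 9 were called lower in the drug groups, and their part in the results on the members was not tested.

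In non-failing ventricles the members spanned a wide range of TPM, a unit that corrects for depth and transcript length. Bckdha was the most abundant at 102 ± 16.7 TPM (SD, n = 8), followed by Hibadh at 79.2 ± 17.6, Ivd at 56.3 ± 11.3, Bckdhb at 48.9 ± 6.50, Acadsb at 27.3 ± 4.79 and Bcat2 at 23.5 ± 9.85 TPM. The kinase Bckdk stood at 14.2 ± 2.97 TPM, Mccc1 at 11.2 ± 3.11, the phosphatase Ppm1k at 9.43 ± 2.31 and Dbt at 8.86 ± 1.95 TPM. The SDs of neighbours in this order overlapped for each pair except Bckdhb and Acadsb. The level of Bckdhb carries a further uncertainty, since the authors' mean effective length of this gene was 542 ± 74.4 bases (SD over 38 libraries, 420 to 784), while its annotated coding transcripts are 1398 to 1477 bases long. Its annotated processed transcripts, which are not labelled as coding, are 504, 540 and 542 bases long. An effective length is an estimate corrected for bias and is not the length of a transcript, so which transcripts were counted was not tested.

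**Figure D1:**
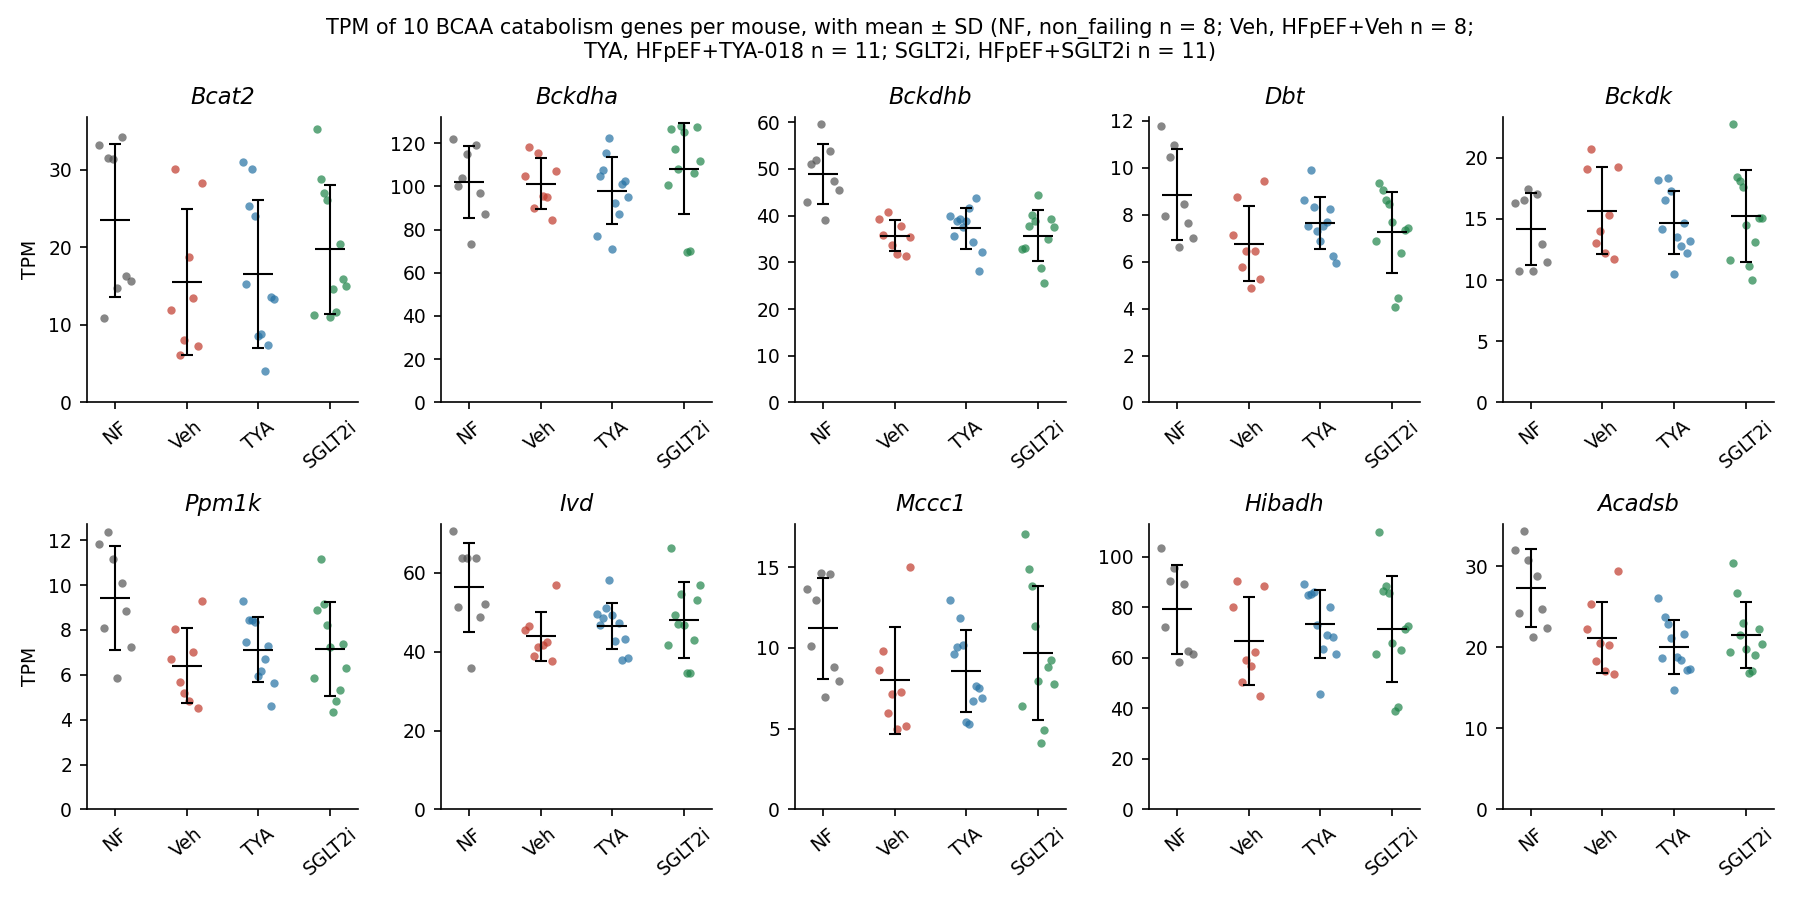
TPM of each of the 10 genes (y axis, from 0) in each mouse by group (x axis; NF, non_failing; Veh, HFpEF+Veh; TYA, HFpEF+TYA-018; SGLT2i, HFpEF+SGLT2i), with the group mean and SD in black. Bckdhb lies at 39.0 to 59.5 TPM in NF and at 31.4 to 40.7 TPM in Veh, while Bcat2 ranges from 4.00 to 35.3 TPM over all mice.

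The first comparison asked how the pathway differed between vehicle-treated HFpEF hearts and non-failing hearts. The transcripts of 4 members fell and none rose: the decarboxylase subunit Bckdhb, the phosphatase Ppm1k, the leucine enzyme Ivd and the isoleucine enzyme Acadsb. The kinase Bckdk had a log2 fold change of 0.05. The quasi-likelihood test of edgeR called 4 of 10 members lower at an adjusted p under 0.05, against 1.38% of the 13765 genes called lower and 3.15% called in either direction. The median log2 fold change was -0.45 over the members and 0.01 over all genes tested, and 6 members had an unadjusted p under 0.05. DESeq2 also called 4. The edgeR count was 2 without V2501, V2503 or V2530.

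Bckdhb fell by 34.5%. Its TPM ran from 39.0 through a median of 49.2 to 59.5 in non-failing hearts and from 31.4 through 35.6 to 40.7 in vehicle hearts. Only the edges of the ranges met on this scale. On the log2 CPM scale of the test non-failing mice lay at 4.83 or above and vehicle mice at 4.72 or below. The share of all genes tested whose groups did not overlap is not given here. The log2 fold change of -0.61 ± 0.105 (SE) had an adjusted p of 0.000471 in edgeR, and each of the 8 vehicle mice lay below the non-failing mean.

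Its partner subunit Bckdha, which carries the phosphorylation sites, was at 102 TPM in the non-failing and 101 ± 11.9 TPM in the vehicle group, with the ranges of 73.1 to 122 and 84.4 to 118 TPM lying over each other. Its log2 fold change was -0.15 ± 0.129 (SE, adjusted p = 0.610 by edgeR). The log2 ratio of Bckdhb to Bckdha TPM within a mouse, chosen after these values were seen and therefore not tested, averaged -1.06 ± 0.196 (SD) in non-failing and -1.50 ± 0.210 in vehicle hearts. It lay below the non-failing mean in 8 of 8 vehicle mice and in 11 of 11 HFpEF+SGLT2i mice (-1.58 ± 0.171), and in 9 of 11 HFpEF+TYA-018 mice (-1.39 ± 0.313). The authors' effective lengths enter this ratio. For Bckdhb they averaged 538 ± 44.3 bases (SD) in non-failing and 507 ± 74.2 in vehicle mice. In HFpEF+TYA-018 mice they averaged 532 ± 67.3 bases and in HFpEF+SGLT2i mice 581 ± 89.1. For Bckdha, in the same order, they averaged 1959 ± 89.9, 1872 ± 159, 1894 ± 189 and 1969 ± 123 bases. With expected counts in place of TPM, each group difference shifted by less than an SD. The part of length in the ratio was not tested. The core acyltransferase Dbt ran from 6.61 to 11.8 TPM in non-failing and from 4.89 to 9.42 TPM in vehicle hearts, and its log2 fold change of -0.45 ± 0.149 (SE) missed the threshold (adjusted p = 0.0906). It was called when vehicle mouse V2532 was left out, with -0.56 and an adjusted p of 0.019.

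Ppm1k, the phosphatase that activates the complex, fell by 34.3%. Non-failing hearts held 5.87 TPM at the lowest, 9.47 at the median and 12.3 at the highest, and vehicle hearts 4.52, 6.18 and 9.30 TPM. The ranges overlapped, but all 8 vehicle mice lay below the non-failing mean on the log2 CPM scale. The log2 fold change was -0.61 ± 0.154 (SE, adjusted p = 0.0207 by edgeR), and the adjusted p rose to between 0.051 and 0.053 when non-failing mouse V2501 or V2503 or vehicle mouse V2530 was left out. For the opposing kinase Bckdk the 3 values were 10.7, 14.6 and 17.5 TPM in non-failing and 11.7, 14.7 and 20.7 TPM in vehicle hearts. Its groups lay on top of each other (log2 fold change 0.05 ± 0.133, adjusted p = 0.892).

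Among the enzymes beyond the complex, Acadsb, which oxidises the acyl-CoA made from isoleucine, fell by 27.1%. It ran from 21.3 through a median of 26.8 to 34.3 TPM in non-failing and from 16.7 through 20.3 to 29.4 TPM in vehicle hearts. Vehicle V2532 was the highest of its group, and 7 of 8 vehicle mice lay below the non-failing mean in TPM and 8 of 8 in log2 CPM. The log2 fold change was -0.46 ± 0.108 (SE, adjusted p = 0.0118 by edgeR). Ivd, isovaleryl-CoA dehydrogenase of the leucine route, fell by 26.0%, with 35.8, 57.9 and 70.7 TPM as the lowest, median and highest value of non-failing hearts and 37.7, 42.0 and 57.0 TPM in vehicle hearts. Non-failing V2507 lay below all vehicle mice and vehicle V2532 stood apart from its group. The log2 fold change of Ivd was -0.43 ± 0.119 (SE, adjusted p = 0.0323), and this call was lost under 16 of the 47 alternatives, with an adjusted p of up to 0.247.

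For 3 further members the test was not passed. Bcat2, the transaminase of the first step, averaged 23.5 TPM in non-failing and 15.5 ± 9.38 TPM in vehicle hearts. Its log2 fold change of -0.71 ± 0.365 (SE) was the lowest among the members, but it did not pass the test (adjusted p = 0.337). In the non-failing group 4 mice held 31.4 to 34.1 TPM of Bcat2 and the other 4 held 10.9 to 16.3 TPM, with none between. Mccc1, which carries the biotin of methylcrotonyl-CoA carboxylase in the leucine route, stood at -0.58 ± 0.246 on the log2 scale (SE, adjusted p of 0.219), and the valine enzyme Hibadh at -0.36 ± 0.182 (adjusted p = 0.326).

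**Figure D2:**
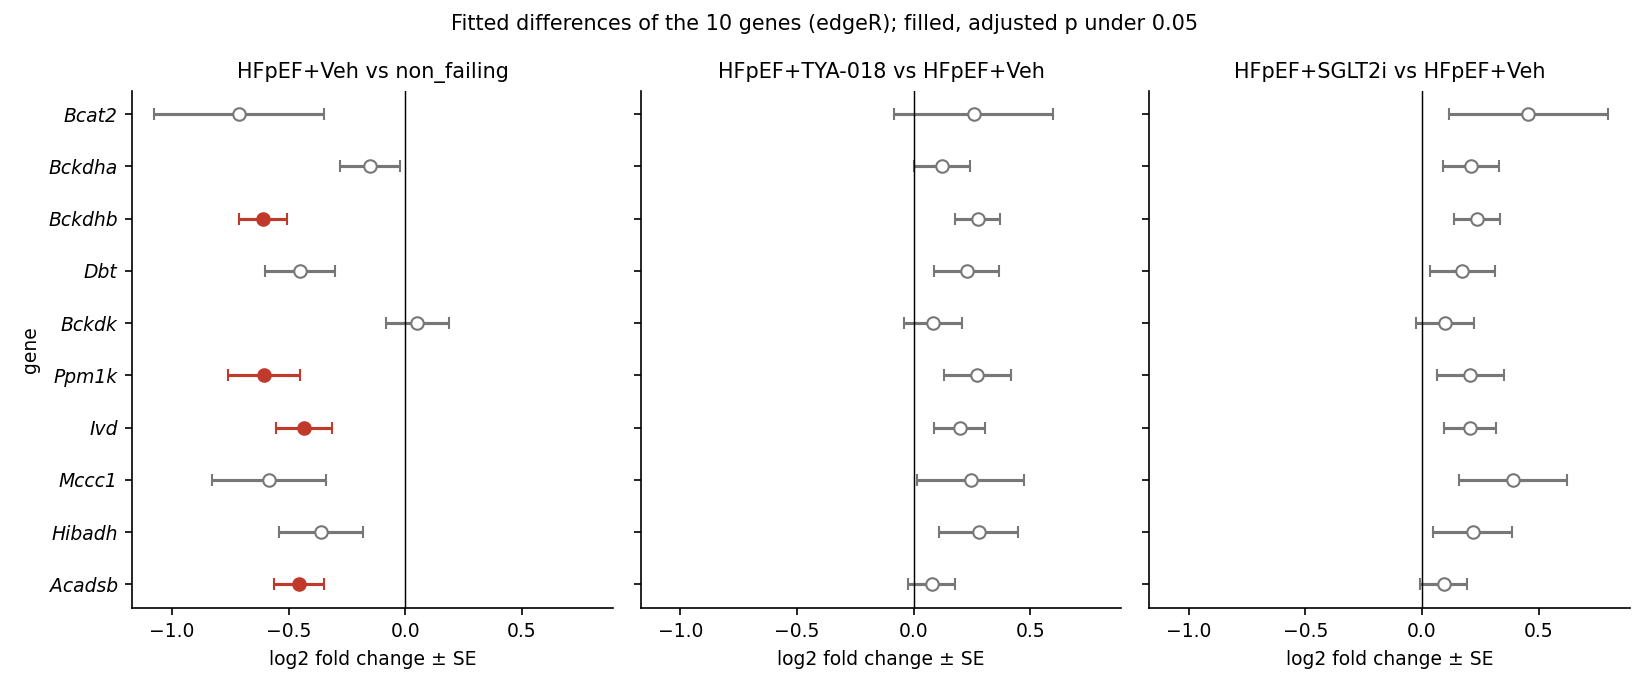
Log2 fold change (x axis) with its SE for each member (y axis) in the comparison of vehicle with non-failing hearts and of each drug with vehicle; filled red points had an adjusted p under 0.05 in edgeR. The 4 called genes, Bckdhb, Ppm1k, Ivd and Acadsb, lie between -0.61 and -0.43 in the left panel, and no point is filled in the other panels.

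The 4 called members lie on 4 chromosomes of GRCm38: Bckdhb at chr9:83925145-84124240 (+), Ppm1k at chr6:57506502-57535468 (-), Ivd at chr2:118861954-118882909 (+) and Acadsb at chr7:131410601-131448944 (+), all protein-coding genes. The 250 bases before the annotated RefSeq start of each are shown (RefSeq annotation of GRCm38.p6, 5′ to 3′ on the gene's strand). These 4 are grouped only by passing the threshold, and shared regulation was not tested. Capitals mark AGGTCA, a core motif of nuclear receptors, and GGGCGG, the core of the GC box, on either strand. RefSeq gives Bckdhb a further start within the gene, whose window at chr9:83948531-83948780 holds neither motif and is not printed.
Bckdhb, chr9:83924887-83925136 (+): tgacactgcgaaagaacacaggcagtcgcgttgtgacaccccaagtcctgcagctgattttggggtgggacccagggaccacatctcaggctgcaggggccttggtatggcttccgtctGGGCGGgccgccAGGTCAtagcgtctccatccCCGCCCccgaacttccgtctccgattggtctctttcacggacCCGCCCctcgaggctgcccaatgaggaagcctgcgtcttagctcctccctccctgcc
Ppm1k, chr6:57535488-57535737 (-): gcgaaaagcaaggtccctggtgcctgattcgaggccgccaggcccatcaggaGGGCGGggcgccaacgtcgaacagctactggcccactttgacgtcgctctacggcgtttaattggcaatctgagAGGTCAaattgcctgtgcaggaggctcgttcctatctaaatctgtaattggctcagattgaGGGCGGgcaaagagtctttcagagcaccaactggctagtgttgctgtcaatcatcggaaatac
Ivd, chr2:118861744-118861993 (+): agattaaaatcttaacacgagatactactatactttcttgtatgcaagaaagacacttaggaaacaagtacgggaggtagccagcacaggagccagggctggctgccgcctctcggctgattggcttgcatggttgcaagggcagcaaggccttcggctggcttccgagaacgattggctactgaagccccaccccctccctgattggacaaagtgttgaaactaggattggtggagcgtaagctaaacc
Acadsb, chr7:131410351-131410600 (+): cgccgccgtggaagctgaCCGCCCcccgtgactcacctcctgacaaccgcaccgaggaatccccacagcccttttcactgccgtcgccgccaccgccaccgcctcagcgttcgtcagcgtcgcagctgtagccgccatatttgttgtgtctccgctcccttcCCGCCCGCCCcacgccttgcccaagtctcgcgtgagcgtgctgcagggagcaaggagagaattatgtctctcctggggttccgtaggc

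AGGTCA was found in the windows of Bckdhb and Ppm1k, at positions -119 and -124 from the start, and in 14% of 32851 such windows of the genome (chromosome 18 left out). GGGCGG was found 3 times each in those of Bckdhb and Acadsb and 2 times in that of Ppm1k, and in 32.7% of all windows. In Acadsb 2 of the 3 matches overlap each other. G and C made up 63.2% of the Bckdhb window, 65.6% of Acadsb, 54.4% of Ppm1k and 51.2% of Ivd. The median over all windows was 52.4%, and the share of windows with GGGCGG was not matched for this content. The longer motif TCAAGGTCA was in no window of the 9 members that had one and in 0.387% of all. CCCCNCCCC was searched on both strands too and is not in capitals: it was found once each in the windows of Bckdhb and Ivd and 2 times in that of Mccc1, and in 20.6% of all windows. The match in Bckdhb and 1 of those in Mccc1 overlap a GGGCGG match. Among the other members, Hibadh and Mccc1, which were not called, also held GGGCGG, and those of Bckdk, Bckdha and Bcat2 held neither motif. A match of letters is a description and not a site of binding.

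Leaving out V2523 gave the same number of called members, 4, and a median log2 fold change of -0.49. The mean vehicle TPM was then 35.7 ± 3.65 (SD, n = 7) for Bckdhb, 6.18 ± 1.66 for Ppm1k, 43.5 ± 6.48 for Ivd and 20.6 ± 4.34 for Acadsb. Bcat2 moved from 15.5 to 13.4 ± 7.89 TPM, and the log2 fold change of Bckdk turned to -0.0086. Leaving out V2532 in its place gave 5 called members and a median of -0.54. Calls over all genes also rose, from 433 to 620 without V2523 and to 605 without V2532. In a homogenate of whole tissue, fewer cells that express a gene and less of its RNA per cell cannot be told apart. Of 8 cardiomyocyte markers, 3 were also called lower in vehicle than in non-failing hearts, with a median log2 fold change of -0.26 over the list, and of 6 fibroblast markers 2 were called higher. In the same comparison 1 of 5 mural markers was called lower, 1 of 4 atrial markers and Cidea, listed for brown fat (0.69), were called higher, and 3 of 3 erythrocyte markers had an unadjusted p under 0.05 (median 1.26, 0 called by edgeR and 1 by DESeq2). With V2523 and V2532 included, edgeR also called 1 of 9 hepatocyte markers (median 0.91) and 1 of 2 fast skeletal muscle markers tested (median 2.14) higher. DESeq2 called 0 in both lists. All 5 macrophage markers tested lay above 0 (median 0.26, 1 at an unadjusted p under 0.05, 0 called). The summed cardiomyocyte markers ran from 38733 to 52808 CPM in non-failing and from 38199 to 45604 CPM in vehicle hearts, and those of fibroblasts from 335 to 523 and from 447 to 988 CPM. The part of these lists in the fall of the 4 members was not tested. With the libraries scaled to the cardiomyocyte markers, an alternative chosen after seeing the data, 2 members remained called, Bckdhb at -0.37 and Ppm1k at -0.36, and Bckdk was at 0.29 (adjusted p = 0.0522). That scaling moved the median over all genes to 0.24 and called 1758 genes, so its values are relative to this shift.

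The balance of kinase and phosphatase transcripts was compared within each mouse as the log2 ratio of Bckdk to Ppm1k TPM. This ratio does not depend on how libraries are scaled. It uses the same genes and mice as the results on Ppm1k and Bckdk above and is not independent of them. Protein amounts and phosphorylation of the complex were not part of these data. The ratio was higher in each HFpEF group than in non-failing hearts. Non-failing mice ran from 0.41 through a median of 0.60 to 0.87, vehicle mice from 1.05 through 1.36 to 1.51, HFpEF+TYA-018 mice from 0.82 through 1.02 to 1.40 and HFpEF+SGLT2i mice from 0.72 through 1.05 to 1.36. Vehicle and non-failing mice did not overlap. Of the HFpEF+TYA-018 mice 4 of 11 lay within the vehicle range and 1 within the non-failing range, and of the HFpEF+SGLT2i mice 6 of 11 and 1.

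The ratio was 0.70 higher on the log2 scale in vehicle than in non-failing hearts (8 of 8 mice above the non-failing mean), with an adjusted p of 0.000311 in an exact two-sided permutation test. The unadjusted p of 0.000155 is the smallest that 12870 arrangements can give. For HFpEF+TYA-018 the ratio was 0.45 above non-failing (11 of 11 mice, adjusted p = 0.000119, exact permutation test) and for HFpEF+SGLT2i it was 0.51 above (11 of 11 mice, adjusted p = 0.000119, exact permutation test). These 3 differences passed the test with expected counts in place of TPM and with each library left out.

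Against vehicle the ratio was 0.25 lower under TYA-018, in 10 of 11 mice (-0.25, adjusted p = 0.00810, exact permutation test), and 0.19 lower under empagliflozin, in 9 of 11 mice (-0.19, adjusted p = 0.0398, exact permutation test). Both calls depended on the unit: with expected counts the differences were -0.19 (adjusted p = 0.0612) and -0.098 (adjusted p = 0.264). The authors' mean effective length of Bckdk was 2065 ± 103 bases (SD) in vehicle, 2096 ± 128 in HFpEF+TYA-018 and 2211 ± 69.8 in HFpEF+SGLT2i mice, and that of Ppm1k was 3440 ± 76.6, 3362 ± 58.8 and 3448 ± 88.9 bases. For empagliflozin the call was also lost without V2523 (-0.18, adjusted p = 0.0658) and without each of 11 other libraries. The drugs differed by -0.053, with an adjusted p of 0.492 in a permutation test. The 6 comparisons share groups and are adjusted together.

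**Figure D3:**
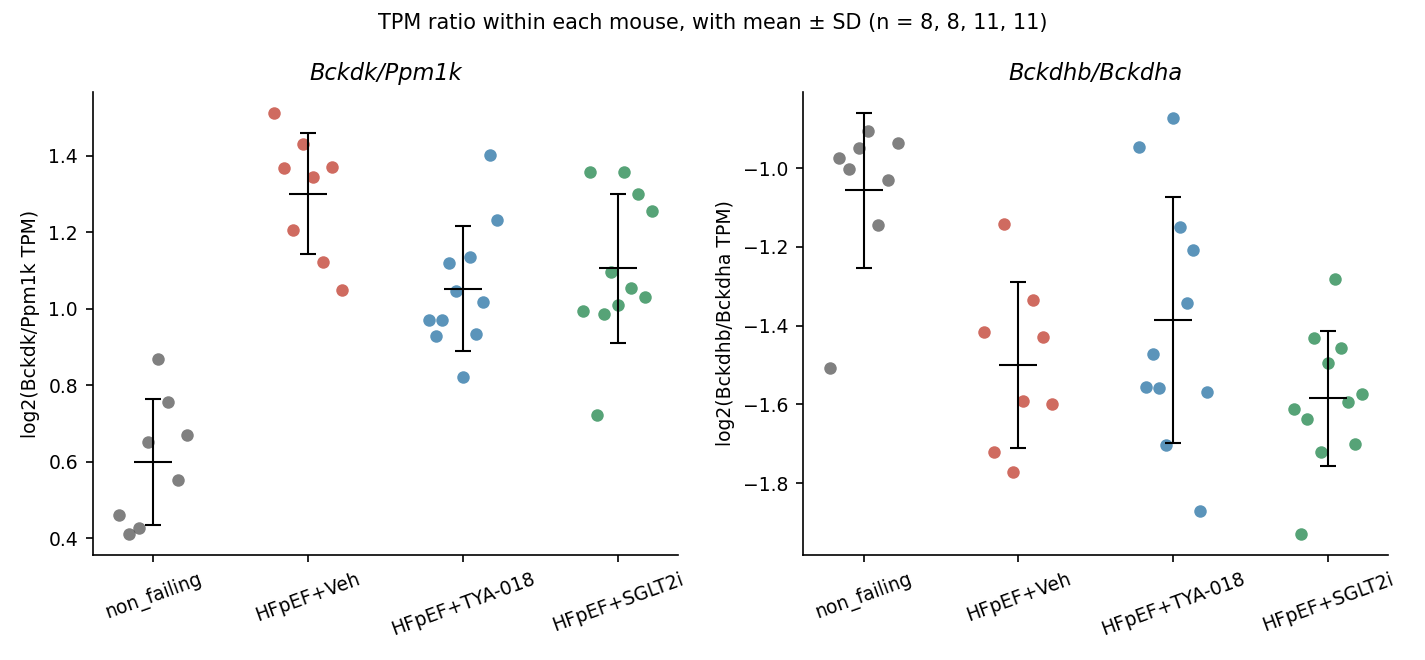
Log2 ratio of Bckdk to Ppm1k TPM (left) and of Bckdhb to Bckdha TPM (right) in each mouse by group, with mean and SD in black (8, 8, 11 and 11 mice). On the left the vehicle mice, at 1.05 to 1.51, all lie above the non-failing mice, at 0.41 to 0.87; the right panel is a description with no test.

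The next comparisons asked whether the drugs moved the members relative to vehicle. No member was called under either drug. All 10 had a log2 fold change above 0 in each comparison, from 0.08 to 0.28 under TYA-018 and from 0.09 to 0.46 under empagliflozin (medians 0.24 and 0.21), and both comparisons use the same vehicle mice. Of the 13765 genes tested 6632 and 7105 lay above 0. All 13 TCA cycle genes tested (medians 0.23 and 0.23) and all 6 pyruvate and 2-oxoglutarate dehydrogenase subunits (0.23 and 0.24) also lay above 0 in each comparison. Of 21 further BCAA genes 18 and 20 did so. The edgeR test called 0 of 10 members under TYA-018, where 1.93% of all genes were called and 0.835% called higher, and 0 of 10 under empagliflozin, where 0.85% were called. Without V2523 the latter calls over all genes fell from 117 to 2. In each comparison 1 member, Bckdhb, had an unadjusted p under 0.05, and DESeq2 also called 0 members in both. Beside them, 7 of 8 cardiomyocyte markers lay above 0 under TYA-018 (median 0.18, 5 at an unadjusted p under 0.05) and all 6 fibroblast and all 5 endothelial markers below 0 (medians -0.23 and -0.14). Under empagliflozin the medians of these lists were 0.064, -0.22 and 0.0024. None of these markers was called by edgeR or DESeq2 in either comparison. Cidea lay at 0.27 under TYA-018 and 0.21 under empagliflozin, each at an unadjusted p under 0.05. It was called by DESeq2 but not by edgeR under TYA-018, and by neither under empagliflozin. The 3 erythrocyte markers had a median of -0.11 under TYA-018, with 0 at an unadjusted p under 0.05. Under empagliflozin their median was -0.90, with 3 of 3 at an unadjusted p under 0.05 and 0 called by either tool. All 9 hepatocyte markers were called lower than in vehicle under each drug (medians -6.05 and -5.80, with V2523 in the vehicle group), as was 1 of 2 fast skeletal muscle markers tested. The part of these lists in the members' values was not tested.

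Bckdhb lay 0.27 ± 0.098 (SE) above vehicle on the log2 scale (adjusted p = 0.124 by edgeR) under TYA-018, with 10 of 11 mice above the vehicle mean on the log2 CPM scale, and 0.24 ± 0.098 above it (adjusted p = 0.355) under empagliflozin, with 9 of 11 above. In TPM its means were 37.2 ± 4.45 and 35.7 ± 5.40, beside 35.7 ± 3.38 in vehicle hearts, so the difference was smaller than the spread between mice on that scale. TPM also depends on the effective length of Bckdhb. That length averaged 507 ± 74.2 bases (SD) in vehicle, 532 ± 67.3 under TYA-018 and 581 ± 89.1 under empagliflozin. Its part in the difference between the scales was not tested. Ppm1k averaged 7.12 ± 1.44 TPM under TYA-018 and 7.15 ± 2.08 under empagliflozin, beside 6.41 ± 1.67 in vehicle hearts, and its log2 fold changes were 0.27 ± 0.143 (SE) and 0.21 ± 0.143. Acadsb showed the lowest values, 0.08 ± 0.10 and 0.09 ± 0.10 (SE). Without V2523 the members ran from 0.11 to 0.46 under TYA-018 and from 0.12 to 0.65 under empagliflozin, and still 0 were called, as also without V2532. The sign of these small differences depended on scaling: with library size alone 3 members fell below 0 under TYA-018, and with libraries scaled to the TCA cycle genes 4 did so under TYA-018 and 7 under empagliflozin.

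The drugs were compared with each other over 11 mice each. The log2 fold changes of the members in HFpEF+TYA-018 against HFpEF+SGLT2i ran from -0.20 for Bcat2 to 0.07 for Ppm1k, with SEs of 0.089 to 0.310. The edgeR test called 0 of 10 members and 0% of all genes, no member had an unadjusted p under 0.05, and DESeq2 called 0 members.

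Against non-failing hearts, 2 members stayed lower in both drug groups. For Bckdhb the log2 fold change was -0.34 ± 0.096 (SE), with an adjusted p of 0.0252 by edgeR, in HFpEF+TYA-018 and -0.37 ± 0.096 (adjusted p = 0.0129) in HFpEF+SGLT2i hearts, with all 11 mice of each group below the non-failing mean. Its TPM ran from 28.1 through a median of 38.8 to 43.7 under TYA-018 and from 25.5 through 37.6 to 44.4 under empagliflozin, so both groups overlapped the non-failing range of 39.0 to 59.5 TPM at its lower end. Acadsb had -0.38 ± 0.0996 (adjusted p = 0.0141) and -0.36 ± 0.0995 (adjusted p = 0.0204), with 11 and 10 of 11 mice below the non-failing mean. Of 8 cardiomyocyte markers 3 were also called lower in HFpEF+SGLT2i than in non-failing hearts and 0 in HFpEF+TYA-018 (2 at an unadjusted p under 0.05, 0 called by DESeq2), and with libraries scaled to these markers Acadsb in HFpEF+SGLT2i was at -0.20 (adjusted p = 0.0877). Fibroblast markers called numbered 1 higher in HFpEF+TYA-018, and 1 higher and 1 lower in HFpEF+SGLT2i. Mural markers called numbered 1 higher and 1 lower in HFpEF+TYA-018, and Cidea was called higher in both (0.96 and 0.90). In both drug groups 1 of 4 atrial markers tested was called higher too. Of 3 erythrocyte markers 1 was called higher in HFpEF+TYA-018 (median 1.15, 3 at an unadjusted p under 0.05, 2 called by DESeq2). In HFpEF+SGLT2i 0 of the 3 were called by edgeR or DESeq2 (median 0.33). The part of these lists in the members' values was not tested. The 2 of 10 members called lower stand beside 3.39% of all genes called lower and 7.39% called in HFpEF+TYA-018, and 2.99% and 6.45% in HFpEF+SGLT2i. Ppm1k missed the threshold in both (-0.33 ± 0.142, adjusted p = 0.151, and -0.40 ± 0.141, adjusted p = 0.0868). Without non-failing V2504 or V2508 the adjusted p of Bckdhb in HFpEF+TYA-018 rose to 0.063 and 0.062, and without V2504 that of Acadsb in HFpEF+SGLT2i rose to 0.053. With libraries scaled to the TCA cycle genes more members were called in both drug groups, as given in the section on processing.

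A test for any difference among the 4 groups called 3 of the 10 members, against 9.5% of all genes. These were Bckdhb (adjusted p = 0.000900), Acadsb (adjusted p = 0.0114) and Ppm1k (adjusted p = 0.0385), all by the F test of edgeR. Ivd followed with an adjusted p of 0.0709, and Bckdk had the highest, 0.747.

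The wider BCAA pathway was described by 21 further genes, among them transporters, Dld, the later enzymes of the 3 routes, propionyl-CoA handling and the regulator Klf15. In vehicle against non-failing hearts 1 of the 21 was called lower and 0 higher, against 1.38% of all genes called lower, with a median log2 fold change of -0.19. The called gene was Hsd17b10, a dehydrogenase of the isoleucine route that is also a subunit of mitochondrial ribonuclease P. It stood at 78.8 TPM at the lowest, 100.4 at the median and 125 at the highest in non-failing hearts and at 71.2, 79.5 and 91.0 TPM in vehicle hearts. All 8 vehicle mice lay below the non-failing mean (log2 fold change -0.44 ± 0.091 SE, adjusted p = 0.00383 by edgeR). The call was lost with libraries scaled to TCA cycle genes (-0.26, adjusted p = 0.176) or to cardiomyocyte markers (-0.19, adjusted p = 0.0557).

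Under TYA-018 2 of the 21 were called higher than in vehicle and 0 lower, against 0.835% of all genes called higher, and under empagliflozin 0 were called by edgeR or DESeq2, with 2 at an unadjusted p under 0.05 and a median of 0.17. Mcee, methylmalonyl-CoA epimerase, ran from 38.7 through 49.5 to 56.2 TPM in vehicle and from 44.0 through 55.9 to 59.0 TPM in HFpEF+TYA-018 hearts, and its log2 fold change was 0.37 ± 0.097 (SE), with an adjusted p of 0.0370 and 11 of 11 mice above the vehicle mean in log2 CPM but 10 of 11 in TPM. Hsd17b10 ran from 71.7 through 91.3 to 93.8 TPM under TYA-018, and its log2 fold change was 0.31 ± 0.085 (adjusted p = 0.0486), with 11 of 11 mice above the vehicle mean in log2 CPM but 8 of 11 in TPM. Under empagliflozin the same genes had 0.22 ± 0.097 (adjusted p = 0.413) and 0.15 ± 0.084 (adjusted p = 0.572), and between the drugs Mcee had 0.15 (adjusted p = 0.492) and Hsd17b10 0.16 (adjusted p = 0.381). The calls under TYA-018 were lost in 17 of 47 alternatives for Mcee and in 32 of 47 for Hsd17b10. Both were lost with libraries scaled to cardiomyocyte markers, at 0.19 for Mcee (adjusted p = 0.121) and 0.13 for Hsd17b10 (adjusted p = 0.199). Against non-failing hearts Hsd17b10 stayed lower in HFpEF+SGLT2i, at -0.29 ± 0.084 (adjusted p = 0.0310), and was at -0.13 ± 0.084 (adjusted p = 0.383) in HFpEF+TYA-018. The former call was lost without each of 7 libraries and under 2 other settings, with an adjusted p of up to 0.156.

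Related mitochondrial lists were measured in the same fit to place these values. In vehicle against non-failing hearts 0 of 6 subunits of the pyruvate and 2-oxoglutarate dehydrogenases, which are built like BCKDH, were called (median -0.21, 1 at an unadjusted p under 0.05), and 0 of 13 TCA cycle genes were called (median -0.16, 1 at an unadjusted p under 0.05). DESeq2 also called 0 in both lists. Of 15 genes of fatty acid oxidation 4 were called higher and 0 lower, against 1.77% of all genes called higher, with a median of 0.34. These were Cpt1b (0.44), the carnitine palmitoyltransferase of muscle, Cpt2 (0.42), Acaa2 (0.49) and Decr1 (0.53). The difference between the lists was not tested.

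**Figure D4:**
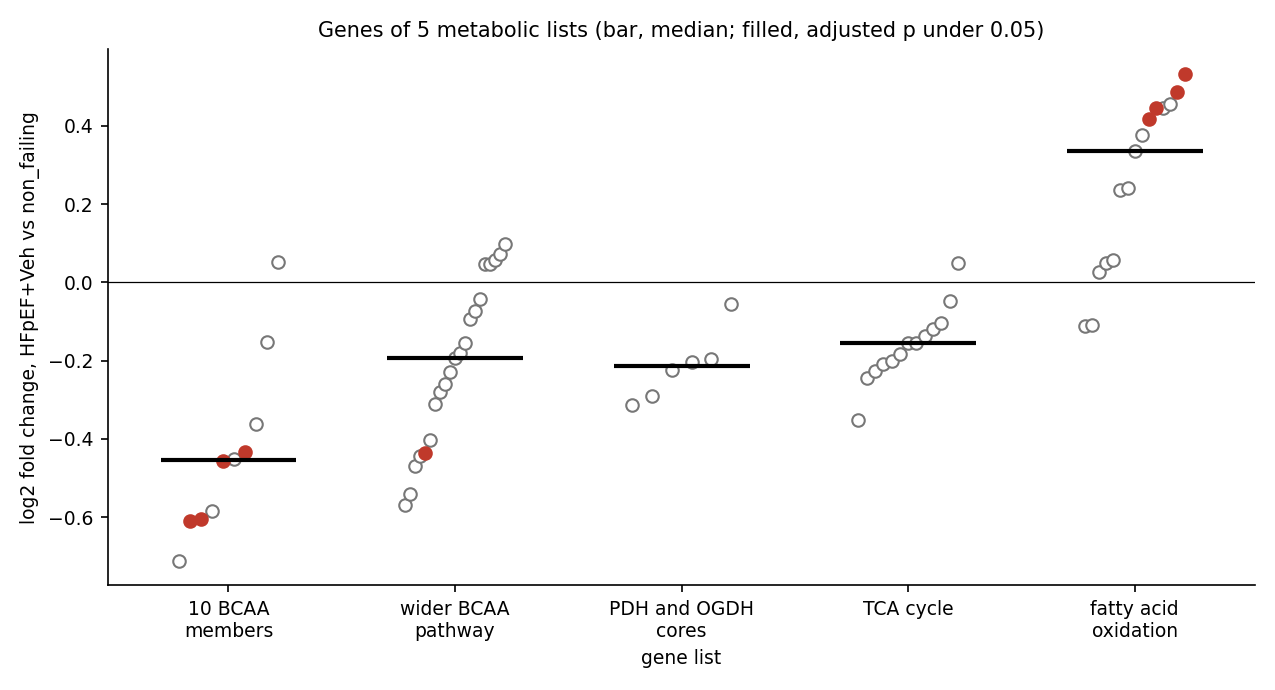
Log2 fold change of vehicle against non-failing hearts (y axis) for each gene of 5 lists (x axis; PDH and OGDH, pyruvate and 2-oxoglutarate dehydrogenase); bars are list medians and filled points had an adjusted p under 0.05 in edgeR. The medians are -0.45 for the 10 members, -0.19, -0.21 and -0.16 for the next lists and 0.34 for fatty acid oxidation.

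Within groups the members rose and fell together from mouse to mouse. After the group mean was subtracted, Pearson's r of log2 CPM over 38 mice was between 0.48 (Bcat2 with Bckdhb) and 0.93 (Bckdk with Hibadh) in the 45 pairs, with a median of 0.78. These are descriptions: the values of a pair come from the same library. Bcat2 varied most, with a within-group SD of 0.78 on the log2 CPM scale, above 92.4% of the genes tested, followed by Mccc1 with 0.51 (82.3%), while Bckdhb and Acadsb varied least, with 0.22 each (35.4% and 36.3%). The TPM of Bcat2 differed 7.74-fold between the highest and lowest mouse of the HFpEF+TYA-018 group.

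Among the genes outside the BCAA lists whose deviations were most like the mean of the members were Acadm (r = 0.97), a dehydrogenase of medium-chain acyl-CoA, Gbas (0.97), Dnajc28 (0.97) and Coq9 (0.97), a gene of ubiquinone synthesis. Spearman's rho was 0.94 to 0.96 for them, and r was 0.95 to 0.96 without the 2 mice farthest from the median. Of 13734 genes outside the lists, 262 or 1.91% had an r of at least 0.9. The mean of the TCA cycle list followed the members with r = 0.96 and that of the 21 further BCAA genes with r = 0.94, but that of fatty acid oxidation only with r = 0.39, or 0.205 without the 2 farthest mice. Among the members themselves Bckdk, which passed no test between groups, had the highest r with the mean (0.962), close to Hibadh (0.957). The mean includes the member itself, which raises these r values.

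Other features of the libraries moved with the members too. The mean of 5 endothelial markers went the opposite way within groups (r = -0.84, rho = -0.81, and r = -0.78 without the 2 farthest mice), and that of 8 cardiomyocyte markers the same way (r = 0.80). The members' mean was lowest in HFpEF+SGLT2i V2571 and V2572, and the summed endothelial markers ran from 643 to 1345 CPM in that group. They ran from 695 to 1044 CPM in non-failing, 791 to 1128 CPM in vehicle and 597 to 904 CPM in HFpEF+TYA-018 hearts, and 0 of the 5 were called in vehicle against non-failing hearts by edgeR or DESeq2, with 0 at an unadjusted p under 0.05. Total counts (r = 0.61) and the mean effective length over the genes tested (r = 0.70) also moved with the members. Their part in the spread between mice was not tested.

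**Figure D5:**
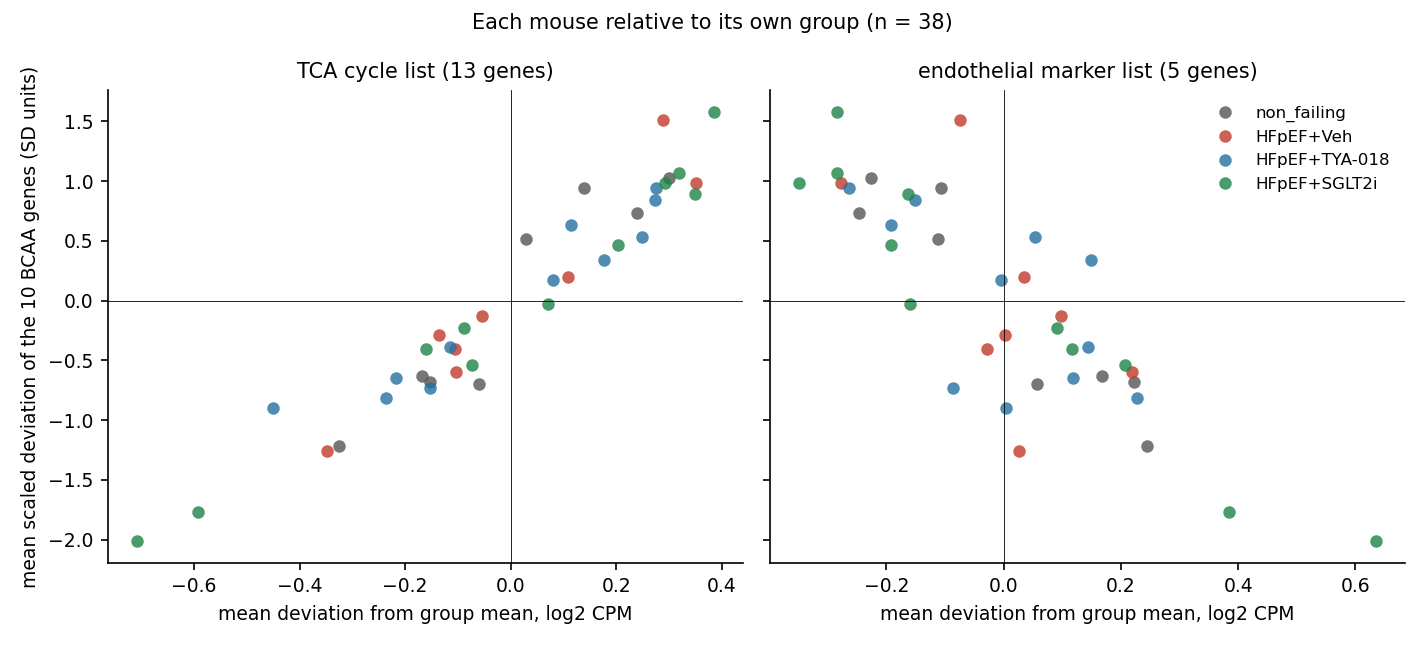
Mean deviation of the 10 members from their group mean (y axis, in SD units) against that of 13 TCA cycle genes (left) and 5 endothelial markers (right; x axes in log2 CPM) in each of 38 mice, coloured by group. Members and TCA cycle genes lie along a rising line (r = 0.96), and members and endothelial markers along a falling one (r = -0.84).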

How the data were processed

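Left ventricular RNA of 38 mice was sequenced from polyA-selected, stranded libraries. The authors quantified reads with salmon 1.6.0 against GENCODE transcripts of GRCm38.p6 and deposited expected counts per gene (not scaled), TPM (scaled by the authors for length and depth) and the effective length of each gene in bases. The labels name a human build, which the mouse gene names contradict, and whether counting used strand is not given in the sources used here. All members except Bckdk and Ivd overlap a gene on the opposite strand, and Dbt, Mccc1, Hibadh and Acadsb minor predicted genes on their own strand, whose reads could be shared.

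Expected counts were rounded and tested with the quasi-likelihood F test of edgeR 4.0.16 (R 4.3.3) after TMM scaling and its default filter on low counts, in 1 fit over the 4 groups, with Benjamini-Hochberg adjustment over 13765 genes and a threshold of 0.05. Log2 CPM used a prior count of 2. Log2 TPM ratios were compared with exact two-sided permutation tests (scipy 1.17.1), or 100000 resamples between the drugs, adjusted over 6 comparisons. Alternatives were DESeq2 1.42.0, limma 3.58.1 on log2(TPM + 1) or log2(TPM + 0.1), library size only, no filter, a length offset, only the groups compared, each library left out, and, chosen after seeing the data, scaling to TCA cycle or cardiomyocyte genes. The steps were tested on simulated data.

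The members and lists were chosen with earlier results of these data known. The text names all 10 members, each gene of the wider list called in any comparison, and the 5 genes outside the BCAA lists whose within-group log2 CPM was most correlated with the members' mean, of which 1 is not reported here. Each library is a separate mouse. Promoter windows and gene positions came from RefSeq and GENCODE release 21 of GRCm38, and 1 member, Dbt, had no window.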

Additional observations from a re-analysis of the deposited data

Results flagged for a closer look

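In groups of 8, 24 sets of values were examined for a mouse set apart from the others by Dixon's test, and groups of 11 were not tested. Chance flags about 1 in 20 such groups. The test singled out 2 values: the TPM of Ivd in vehicle mouse V2532, which was the highest of its group at 57.0, and the log2 ratio of Bckdhb to Bckdha in non-failing mouse V2501, which was the lowest of its group at -1.51.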

How the results depend on the processing

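No paired analysis was possible because the groups share no mouse numbers. Of 2250 values recomputed under alternatives, 2109 stayed the same by the rule for their kind. A fold change, or the ratio of Bckdk to Ppm1k, had to keep its direction and its side of the threshold. A count of called members had only to stay near the main count. The ratio of Bckdhb to Bckdha had to stay within an SD of its main value. Most alternatives left out a single library, often of a group outside the comparison. Many of the differences were not called in the main analysis, so the total is not a measure of robustness. Bckdhb was called lower in vehicle than in non-failing hearts under each alternative. With one library left out, the number of called members ran from 2 to 5 among the 4 groups (5 without V2532), from 2 to 5 for vehicle against non-failing, from 1 to 2 for HFpEF+TYA-018 against non-failing and from 1 to 3 for HFpEF+SGLT2i against non-failing (3 without V2563), and was 0 for each drug against vehicle. For vehicle against non-failing it was 2 without V2501, V2503 or V2530, and 2 with cardiomyocyte scaling. TCA scaling gave 4 called members for each drug against non-failing, with 414 (HFpEF+TYA-018) and 385 (HFpEF+SGLT2i) of all 13765 genes called. For HFpEF+SGLT2i limma on log2(TPM + 0.1) and the length offset gave 1 each. With one library left out the kinase to phosphatase ratio was -0.28 to -0.22 for HFpEF+TYA-018 and -0.23 to -0.16 for HFpEF+SGLT2i against vehicle, and with expected counts it was -0.19 and -0.098.

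Signs turned only for differences that passed no test. For vehicle against non-failing these were Bckdha at 0.026 with TCA and 0.095 with cardiomyocyte scaling, and Bckdk at -0.0086 without V2523 (up to 0.0996 without another library). For HFpEF+TYA-018 against vehicle, Bckdha, Bckdk and Acadsb were at -0.012, -0.050 and -0.052 with library size only, -0.044, -0.067 and -0.058 with limma on log2(TPM + 1), -0.045, -0.069 and -0.060 on log2(TPM + 0.1), -0.13, -0.15 and -0.17 with TCA scaling (Ivd at -0.026) and -0.050, -0.090 and -0.091 with cardiomyocyte scaling. For HFpEF+SGLT2i against vehicle, TCA scaling gave Bckdha -0.019, Dbt -0.060, Bckdk -0.11, Ppm1k -0.024, Ivd -0.0055, Hibadh -0.015 and Acadsb -0.11, and limma gave Bckdk -0.026 and -0.027. The median over all genes itself shifted under TCA scaling, to 0.17 for vehicle against non-failing, -0.25 for HFpEF+TYA-018 and -0.17 for HFpEF+SGLT2i against vehicle, and under cardiomyocyte scaling to 0.24, -0.18 and -0.054, so these signs are relative to that shift. Over all genes, calls for HFpEF+TYA-018 against vehicle numbered 266 in the main analysis, 1096 with library size only, 517 with DESeq2 and 38 with limma on log2(TPM + 1), and between the drugs 0, 0, 187 and 0 (1821 genes there had an unadjusted p under 0.05). For HFpEF+SGLT2i against vehicle they numbered 117, and 2 without V2523. The causes were not tested.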
